A study of Mus musculus with 4 samples.

Results

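Gene deserts are stretches of the genome in which no protein-coding gene lies over long distances. Of the 26402 autosomal regions called as open chromatin in all 4 lung tumour samples of this study, 1210 lay over 100 kb from every protein-coding gene, which is 4.58% (95% Wilson interval, 4.34 to 4.84). They were selected on 2 measures among 60713 autosomal regions, namely presence of a peak in each of the 4 libraries and distance, so their presence and their distance describe the choice and are not results. Peak width was not used in the choice, nor were the positions of the regions relative to each other and the non-coding genes and flanking genes around them.

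Accessible DNA was mapped by ATAC-seq, an assay based on cutting and tagging by a transposase, in lung tumours of 4 mice of strain C57B6J aged 55 weeks. Tumours with KrasLA1/+ together with Dicer1S2D/+ came from 2 mice (KrasLA1;Dicer1S2D, called Dicer1S2D tumours here), and those with KrasLA1/+ alone from 2 mice (called KrasLA1 tumours), so KrasLA1/+ was common to every animal. Replicate 1 was female and replicate 2 male in both groups. KrasLA1 is a latent oncogenic allele that becomes active by spontaneous recombination in single cells, and Dicer1S2D is a phosphomimetic allele of Dicer1, the ribonuclease that cuts miRNA precursors. The tissue was snap frozen at 40 to 50 mg a sample, and the labels do not say if several tumours were pooled. A peak was present in all 4 libraries at 13 of 14 genes checked for lung epithelium, endothelium, stroma and immune cells, among them the surfactant gene Sftpc and the endothelial gene Pecam1. Cdh5, also a marker of endothelium, had none in any library. The number of reads is unknown, because the deposited intervals hold positions only. The libraries had 50282 and 34767 peaks in the Dicer1S2D tumours, against 41621 and 44654 in the KrasLA1 tumours (replicates 1 and 2, the order kept for all pairs of values below).

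Open chromatin far from genes is often enhancer DNA, which carries binding sites for transcription factors and can act on a distant promoter through looping of the chromatin fibre. Large deserts are known to flank developmental regulators and to hold arrays of such elements, and they also hold long non-coding RNA (lncRNA) genes and miRNA genes. The intervals do not show which gene a region acts on, so flanking genes are given as position and not as target.

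Although far from coding genes, 376 of the 1210 desert regions (31.1%) overlapped a non-coding gene of the RefSeq table, and 44 contained an annotated non-coding start. The promoter windows of 6 of these are printed because the start lies inside an open region of a desert. They are the 5 whose whole window lies in the widest desert regions, and that of Mir99ahg, which precedes the let-7c-1 cluster discussed further on. Each window runs 250 bases before to 50 after the start, 5′ to 3′ on the strand of the gene, from RefSeq for GRCm38.p6. Capitals mark matches on either strand to the AP-1 string TGANTCA, to the ETS family string CCGGAAG, to the GC box with the letters GGGCGG, to the TATA box with the letters TATAAA and to the forkhead string TGTTTAC, where overlapping matches run together. Gm30246 (chr14:76817840-76818139, plus strand), Gm41584 (chr17:45885761-45886060, plus strand) and Mir99ahg (chr16:77329078-77329377, plus strand) held none of these 5 strings. Morrbid lies at chr2:128429302-128429601 (minus strand), 2210417A02Rik at chr5:148741590-148741889 (plus strand) and Gm13003 at chr4:137165017-137165316 (minus strand).
Gm30246: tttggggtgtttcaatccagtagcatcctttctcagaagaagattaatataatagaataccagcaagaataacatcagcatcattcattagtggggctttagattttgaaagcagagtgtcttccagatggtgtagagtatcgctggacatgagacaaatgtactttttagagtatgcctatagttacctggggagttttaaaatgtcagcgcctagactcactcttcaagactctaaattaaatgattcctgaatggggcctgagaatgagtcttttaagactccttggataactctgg
Gm41584: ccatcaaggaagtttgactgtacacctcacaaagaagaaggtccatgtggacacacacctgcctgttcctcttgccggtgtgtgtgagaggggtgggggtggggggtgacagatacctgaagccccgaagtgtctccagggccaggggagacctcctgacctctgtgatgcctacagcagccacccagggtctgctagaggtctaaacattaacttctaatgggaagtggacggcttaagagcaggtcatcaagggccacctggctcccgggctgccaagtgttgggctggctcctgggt
Morrbid: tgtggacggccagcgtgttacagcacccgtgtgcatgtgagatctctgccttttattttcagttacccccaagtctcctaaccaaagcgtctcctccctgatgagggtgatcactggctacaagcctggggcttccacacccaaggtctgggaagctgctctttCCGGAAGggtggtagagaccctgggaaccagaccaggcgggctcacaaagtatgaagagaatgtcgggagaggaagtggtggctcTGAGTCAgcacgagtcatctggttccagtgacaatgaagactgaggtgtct
2210417A02Rik: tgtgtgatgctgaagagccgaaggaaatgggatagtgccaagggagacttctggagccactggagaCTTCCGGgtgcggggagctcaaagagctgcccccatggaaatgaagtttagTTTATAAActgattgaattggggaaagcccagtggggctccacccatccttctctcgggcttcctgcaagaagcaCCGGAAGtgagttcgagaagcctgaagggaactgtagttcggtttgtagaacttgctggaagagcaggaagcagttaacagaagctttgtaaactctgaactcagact
Gm13003: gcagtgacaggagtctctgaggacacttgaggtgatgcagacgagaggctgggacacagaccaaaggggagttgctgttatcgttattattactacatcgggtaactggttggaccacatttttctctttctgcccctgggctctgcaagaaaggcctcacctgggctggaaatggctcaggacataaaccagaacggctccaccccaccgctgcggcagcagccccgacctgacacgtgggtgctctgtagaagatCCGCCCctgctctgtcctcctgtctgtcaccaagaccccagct
Mir99ahg: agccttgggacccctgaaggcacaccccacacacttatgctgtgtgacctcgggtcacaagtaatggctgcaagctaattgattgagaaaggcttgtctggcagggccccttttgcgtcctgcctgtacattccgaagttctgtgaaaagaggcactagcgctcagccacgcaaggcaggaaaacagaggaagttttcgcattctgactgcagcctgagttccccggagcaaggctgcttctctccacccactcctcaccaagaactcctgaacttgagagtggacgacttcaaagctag

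The desert regions with the closest miRNA genes lay beside Mir29a and Mir29b-1 on chromosome 6, Mir125b-2 on chromosome 16 and Mir205 on chromosome 1. The mature sequences are printed because Dicer1, the gene altered in the Dicer1S2D mice, encodes the enzyme that cuts them from their hairpins, and because the seed shows which of them can pair with the same targets. Capitals mark the seed, bases 2 to 8 (RefSeq, GRCm38.p6). The miR-29 pair shares the seed AGCACCA, while the other 4 each have a seed of their own.
mmu-miR-29a-3p: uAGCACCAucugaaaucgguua
mmu-miR-29b-3p: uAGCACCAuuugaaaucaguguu
mmu-miR-125b-5p: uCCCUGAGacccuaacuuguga
mmu-let-7c-5p: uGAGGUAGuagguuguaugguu
mmu-miR-99a-5p: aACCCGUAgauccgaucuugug
mmu-miR-205-5p: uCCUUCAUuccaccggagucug

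The desert regions were unevenly placed. They fell into 407 gaps between neighbouring protein-coding genes (1 region at the start of chromosome 13, before Gdi2, has no gene on its left and is counted there), of which 162 held 1 region, 91 held 2, 91 held 3 to 5, 50 held 6 to 9 and 13 held 10 or more. Those 13 gaps held 167 regions. Of the 1393 autosomal gaps over 200 kb, 406 held a region, which is 29.1% (26.8 to 31.6). Gaps over 200 kb with a region were longer, with a median of 569 kb, than those without, with a median of 389 kb, and a longer gap has more sequence beyond 100 kb from its genes. The sequence over 100 kb from genes made up 680 Mb, or 28% of the 2429 Mb between the first and last genes of the autosomes. It held 1.78 desert regions per Mb, against 10.9 shared regions per Mb over the whole span.

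Across chromosomes the density ran from 0.865 regions per Mb of desert on chromosome 19 to 3.46 on chromosome 13. Chromosome 13 had 116 regions, chromosome 12 had 104, chromosome 10 had 103 and chromosome 19 had 9. The distance to the nearest gene had a median of 177 kb (quartiles 128 and 262 kb). There were 485 regions over 200 kb from any gene, 82 over 500 kb and 7 over 1 Mb. Just inside the limit of 100 kb lay 5 regions at 100141 to 100390 bp, between Tbc1d1 and Gm38457, Cd83 and Jarid2, Ptp4a1 and Lgsn, Klf4 and Actl7b, and Ppp1r14bl and Ogfrl1. Just outside lay 5 shared regions at 99406 to 99678 bp, between Slc24a2 and Mllt3, Nrp2 and Ino80d, Magi1 and Slc25a26, Fmo9 and Fam78b, and Ado and Zfp365.

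The median distance from a desert region to the nearest other one was 27.9 kb. Spacing was not compared with that of other shared regions, so whether it is particular to deserts was not tested. In 348 of the 1210 (28.8%) another lay within 12.5 kb, a distance used to join enhancers into clusters. These joined into 114 pairs, 26 runs of 3 and 9 runs of 4 or more. The longest run held 6 regions over 35.5 kb at chr12:25283568-25319061, between Id2 and Rnf144a. Runs of 5 lay between Slc4a3 and Epha4, between Gli2 and Inhbb, between Klf14 and Mkln1, and between Rpl14 and Ctnnb1, the gene of β-catenin, where the run spanned 38.2 kb.

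Peak width is the only measurement that the intervals hold for a region beyond its place. It was summed over the peaks of a library in a region, so the stretch between separate peaks was not counted. Over 1 peak was present in 40 and 25 desert regions in the Dicer1S2D tumours, against 34 and 0 in the KrasLA1 tumours. These were 3.31% and 2.07%, against 2.81% and 0%. Over all shared regions it was 4.65% and 2.81%, against 2.74% and 0.420%. The median width over the 1210 regions was 529.5 and 450.5 bp in the Dicer1S2D tumours, against 488.5 and 567.5 bp in the KrasLA1 tumours. The groups overlapped, and the lowest and the highest values were both from male mice. Over all 26402 shared regions the medians were 610 and 562 bp in the Dicer1S2D tumours, against 604 and 713 bp in the KrasLA1 tumours, so the desert regions were narrower than shared regions as a whole in every library. The difference, desert regions minus all shared regions, was -0.20, -0.32, -0.31 and -0.33 on the log2 scale in the same order of libraries.

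**Figure D1:**
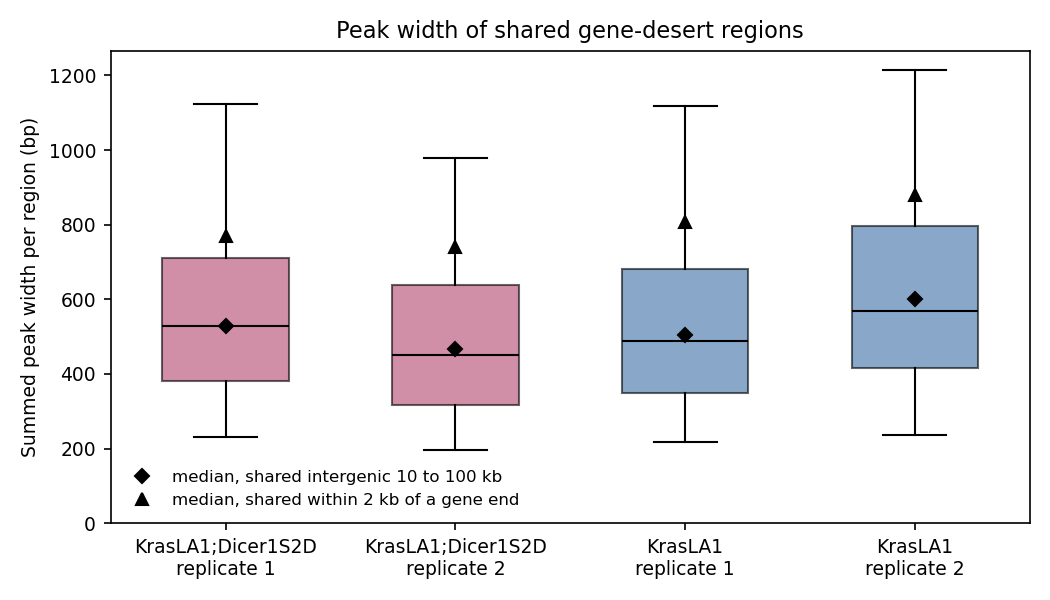
Summed peak width (bp) of the 1210 desert regions in each library, with the 2 Dicer1S2D libraries left of the 2 KrasLA1 libraries; boxes span the quartiles, lines mark medians and whiskers reach the 5th and 95th percentiles. Diamonds mark the median of shared intergenic regions at 10 to 100 kb, close to the box median in every library, and triangles that of shared regions within 2 kb of a gene end, which lies above it.

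The desert regions were narrower than shared regions at gene ends and close in width to other shared regions. Against the 10766 shared regions within 2 kb of a gene end, where promoters lie, their width differed by -0.65 ± 0.09 on the log2 scale (SD, n = 4 libraries). They were 63.6% as wide, and narrower in 4 of 4 libraries. The exact two-sided sign-flip test gave p = 0.125, which is the smallest that 4 libraries allow. Against the 3918 shared intergenic regions at 10 to 100 kb from genes, the median difference was 0.00 and -0.05 in the Dicer1S2D libraries and -0.04 and -0.09 in the KrasLA1 libraries. Its mean was -0.04 ± 0.04 (log2, SD, n = 4; exact sign-flip p = 0.25). Against the 8796 shared regions inside genes it was -0.02 ± 0.06 (n = 4; exact sign-flip p = 0.875). The desert regions were thus 97% as wide as the nearer intergenic regions and 98.4% as wide as those inside genes, differences near the SD between libraries or below it.

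Width had little relation to distance among the desert regions themselves. The 725 regions at 100 to 200 kb had medians of 536 and 441 bp in the Dicer1S2D tumours, against 500 and 575 bp in the KrasLA1 tumours. The 82 regions over 500 kb from a gene had 475 and 400 bp in the Dicer1S2D tumours, against 444 and 484 bp in the KrasLA1 tumours, lower than the nearer class in every library. Spearman's rho of width with distance lay between -0.05 and -0.01 in the 4 libraries over 1210 regions, given as a description, since the regions share their libraries. A mean width of 1 kb or more was reached by 80 regions (6.61%), against 7.86% of the intergenic regions at 10 to 100 kb.

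The order of widths was similar from tumour to tumour. The rank correlation of width over the 1210 regions was between 0.61 and 0.73 for the 6 pairs of libraries. Over the shared intergenic regions at 10 to 100 kb it was between 0.65 and 0.78, at or above the desert value in each pair. For the desert regions themselves the range was as follows. It was 0.71 between the Dicer1S2D tumours and 0.61 between the KrasLA1 tumours. Between genotypes it was 0.72 for the replicate 1 libraries and 0.73 for the replicate 2 libraries. It was 0.67 for Dicer1S2D replicate 1 with KrasLA1 replicate 2, and 0.68 for Dicer1S2D replicate 2 with KrasLA1 replicate 1. These are descriptions over regions that were merged across the same libraries. The median ratio of the widest to the narrowest library was 1.64, and it was over 2 in 355 regions and over 4 in 22. The median coefficient of variation over the 4 libraries was 21.9%, against 20.7% for the intergenic regions at 10 to 100 kb. In bp, without centring, the male KrasLA1 tumour was the widest in 580 regions and the male Dicer1S2D tumour the narrowest in 503. The same tumours had the largest and the smallest median over all shared regions, 713 and 562 bp, so these counts are not particular to deserts.

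The widest desert region lay at chr4:89445199-89447408, 134 kb from Cdkn2b, which encodes an inhibitor of cyclin-dependent kinases, and 241 kb from Dmrta1. It spanned 2179 and 1888 bp in the Dicer1S2D tumours, against 1884 and 2189 bp in the KrasLA1 tumours, and the groups overlapped. The next lay at chr14:76817030-76818810 between Serp2 and Lacc1, over the start of Gm30246, and had widths of 1772 and 1602 bp in the Dicer1S2D tumours, against 1594 and 1634 bp in the KrasLA1 tumours. A region of 1629 and 1585 bp in the Dicer1S2D tumours, against 1621 and 1743 bp in the KrasLA1 tumours, lay between Ndfip2 and Spry2, 302 kb from Spry2, a feedback inhibitor of receptor tyrosine kinase signalling to Ras.

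Of the 15 widest regions 3 lay beside a gene of the lung lineage list described below, as did 75 of all 1210. The region at chr2:147926628-147928594, between Pax1 and Foxa2 and 114 kb from Foxa2, a pioneer factor of endoderm, was 1320 and 1799 bp wide in the Dicer1S2D tumours, against 1229 and 1967 bp in the KrasLA1 tumours. Here both male tumours were wider than both female ones, but each female library had 2 peaks in the region and each male library 1. The summed width leaves out the stretch between the 2 peaks. Between Klf5, a factor of epithelial progenitors, and Klf12, a region at chr14:99578447-99580105 had 1315 and 1469 bp in the Dicer1S2D tumours, against 1277 and 1659 bp in the KrasLA1 tumours. Between Mib1 and Gata6, a zinc finger factor of lung epithelium, a region had 1291 and 1390 bp in the Dicer1S2D tumours, against 1531 and 1419 bp in the KrasLA1 tumours, so both Dicer1S2D tumours were below both KrasLA1 tumours in bp. After centring each library on its median, the log2 difference was 0.03.

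The others of the 15 lay between Irf2bp2 and Tomm20, Cdh26 and 4930591A17Rik, 1600014C23Rik and Vegfa, Nudt4 and Eea1, Phlda1 and Krr1, Slitrk5 and Gpc5, Rxylt1 and Avpr1a, Nmbr and Cited2, and Trib1 and 4933412E24Rik. Vegfa encodes the main growth factor of blood vessels, and its region lay 130 kb away over the start of Gm41584. The region between Slitrk5 and Gpc5, at chr14:114840619-114842672, was 1245 and 638 bp wide in the Dicer1S2D tumours, against 1733 and 1924 bp in the KrasLA1 tumours. The groups did not overlap, and the male Dicer1S2D tumour was lowest by far. The adjusted p of this region in limma was 0.999. In bp, 27.2% of all shared regions were narrower in both Dicer1S2D tumours than in both KrasLA1 tumours. The region was split into 3 and 2 peaks in the Dicer1S2D tumours, against 2 and 1 in the KrasLA1 tumours.

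The farthest region from any coding gene lay at chr8:6572178-6572539, 1467 kb from Slc10a2 and 2045 kb from Efnb2, and was 362 and 200 bp wide in the Dicer1S2D tumours, against 307 and 210 bp in the KrasLA1 tumours. A second in the same gap lay 1410 kb from Efnb2, a membrane-bound ephrin. The rest of the 10 farthest lay between Zeb2 and Acvr2a (3 regions), Alcam and Zpld1 (3), Got2 and Cdh8, and Celf2 and Gata3, at 877 to 1348 kb from the nearest gene. All of the 10 had mean widths between 269.75 and 831.25 bp.

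Of the 10 gaps with the most desert regions, 4 held 16 each. At 11 regions 5 gaps were tied, and the 3 with the largest summed mean width were taken, which left out Nmbr to Cited2 and Enc1 to Arhgef28. Since no desert region can lie within 100 kb of a gene, the rule limits where the regions fall in short gaps. The gap of 465 kb between Serp2 and Lacc1 held 16, with a median width of 521.625 bp (mean over libraries). Between Myc, the proto-oncogene that drives growth, and Gsdmc, 16 regions spanned 1059 kb of a gap of 1786 kb. Of these 7 lay in Pvt1, the lncRNA gene next to Myc. On the other side of Myc, the gap from A1bg held 8 more, so that 24 regions flanked Myc, more than any other gene of the lists described below. The regions beyond Pvt1 included one of 1283 and 934 bp in the Dicer1S2D tumours, against 1193 and 1469 bp in the KrasLA1 tumours, 1076 kb from Myc.

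Between Id2, an inhibitor of basic helix-loop-helix factors, and Rnf144a, 13 of the 16 regions lay within 222 kb of Id2 and the other 3 were scattered over the rest of the gap of 1211 kb. The gap of 440 kb between Klf14 and Mkln1 held 16 regions. Of these 7 lay in Lncpint, a lncRNA induced by p53, and 4 in 2210408F21Rik. The region nearest Klf14 is the one that lay 232 bp from Mir29a and 595 bp from Mir29b-1.

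The other gaps among the 10 were Cd83 to Jarid2 with 14 regions, Zeb2 to Acvr2a and Wdr11 to Fgfr2 with 12 each, and Irf2bp2 to Tomm20, Saraf to Dusp4 and Slc4a3 to Epha4 with 11 each. Fgfr2 encodes a fibroblast growth factor receptor of lung epithelium, and Dusp4 a phosphatase that switches off MAP kinases. In the gap before Dusp4, a region at chr8:34600756-34601842 had nearly the same width in each tumour, 1083 and 1068 bp in the Dicer1S2D tumours, against 1080 and 1079 bp in the KrasLA1 tumours. The gap from Irf2bp2 to Tomm20 was the shortest of the 10 at 337 kb.

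**Figure D2:**
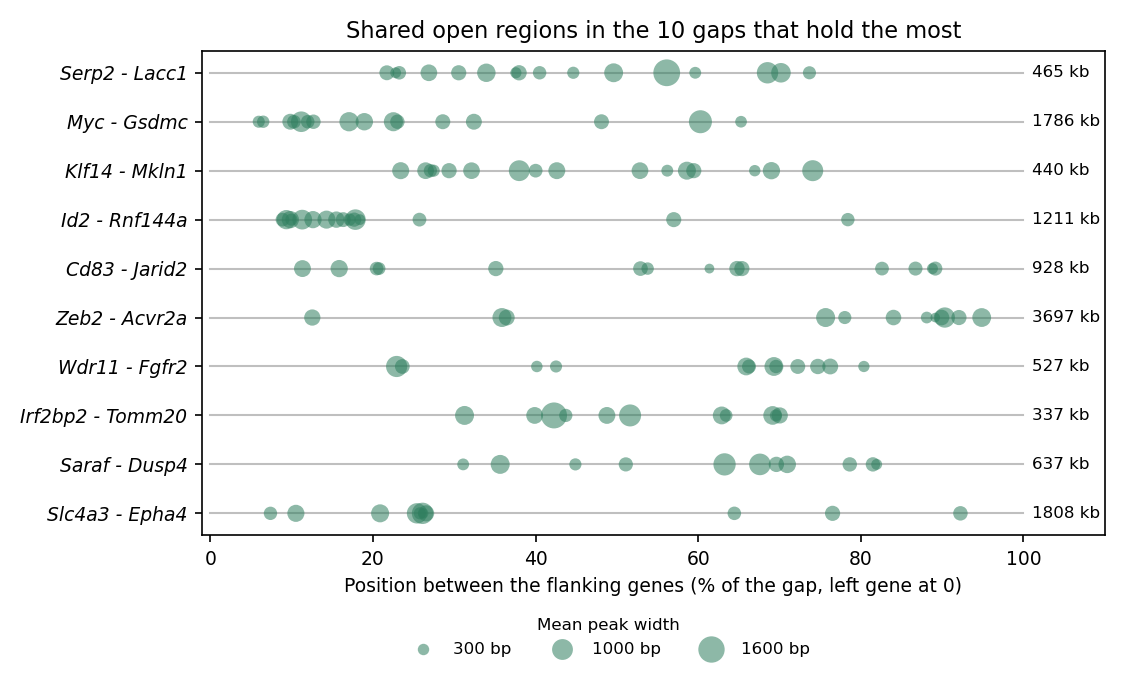
Position of each desert region in the 10 gaps that hold the most, from the left flanking gene (0%) to the right one (100%), with circle area in proportion to mean peak width over the 4 libraries and the gap length at the right. Ties at 11 regions were broken by summed mean width, and no region can lie within 100 kb of a flanking gene. In the gap of Id2, 13 of the 16 regions lie near Id2.

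The genes beside the deserts were read against 6 lists, each set against all genes that border an autosomal gap over 200 kb, since only these can flank a desert region. Of 2374 such genes 774 (32.6%) flanked at least 1 desert region, with a median of 2 regions each. Of the MAPK and AP-1 genes, which act downstream of Ras, 12 of 15 bordering genes did (80%), with a median of 7.5 regions. They were Myc (24 regions), Mycn (11), Dusp4 (11), Spry2 (10), Phlda1 (9), Jun (8), Dusp6 (7), Ets2 (3), Egr2 (2), Spred1 (2), Ets1 (1) and Ccnd1 (1). Jun is a subunit of AP-1, Dusp6 a phosphatase of ERK, and Spred1 an inhibitor of Ras signalling.

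Of the lung lineage factors 16 of 21 bordering genes flanked a desert region (76.2%), with a median of 3.5 regions. Id2 had 16 and Sox4 and Sox9, both factors of progenitors, had 10 each. Klf5 had 9, Gata6 and Sox2 had 6, Irx5 had 5, Irx3 had 4 and Foxa2 had 3. Sox11, Irx1, Irx2, Nfib and Grhl2 had 2 each, and Foxp1 and Trp63, the p63 gene of basal cells, had 1. The widest region between Sox9 and Slc39a11, at chr11:112989067-112990553, had 1401 and 541 bp in the Dicer1S2D tumours, against 1214 and 1179 bp in the KrasLA1 tumours, with the male Dicer1S2D tumour lowest. It held 1 and 2 peaks in the Dicer1S2D tumours, against 2 and 1 in the KrasLA1 tumours. The widest beside Sox4, in the gap from Prl5a1, had 1245 and 1064 bp in the Dicer1S2D tumours, against 1250 and 1172 bp in the KrasLA1 tumours.

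The other 4 lists were closer to all bordering genes. Of the gut lineage factors 4 of 8 flanked a desert region (50%), namely Klf4 (6), Osr1 (5), Hnf4g (2) and Nr5a2 (1). Of other developmental factors it was 20 of 52 (38.5%), led by Zeb2, a repressor of epithelial genes, with 12 and Runx1 with 6, and with Pax3 at 3 and Tcf4 at 2. Of secreted ligands it was 11 of 32 (34.4%), led by Bmp4 with 13 and Inhbb with 7, and with Fgf9 and Gdf6 at 2 and Slit3 at 1. Of adhesion and synaptic genes it was 21 of 61 (34.4%), led by Epha4 with 14, the adhesion receptor gene Adgrl2 with 11 and Epha7 with 7. The lists were drawn up with earlier results of these data known and hold genes with large gaps around them, so the counts describe these lists only. Genes that face each other across a gap count the same regions, as Irx3 and Irx5 do for the 4 between them. Irx1 and Irx2, and Slitrk1 and Slitrk6, do so too, and the genes of a list are therefore not independent. The same holds among all bordering genes.

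**Figure D3:**
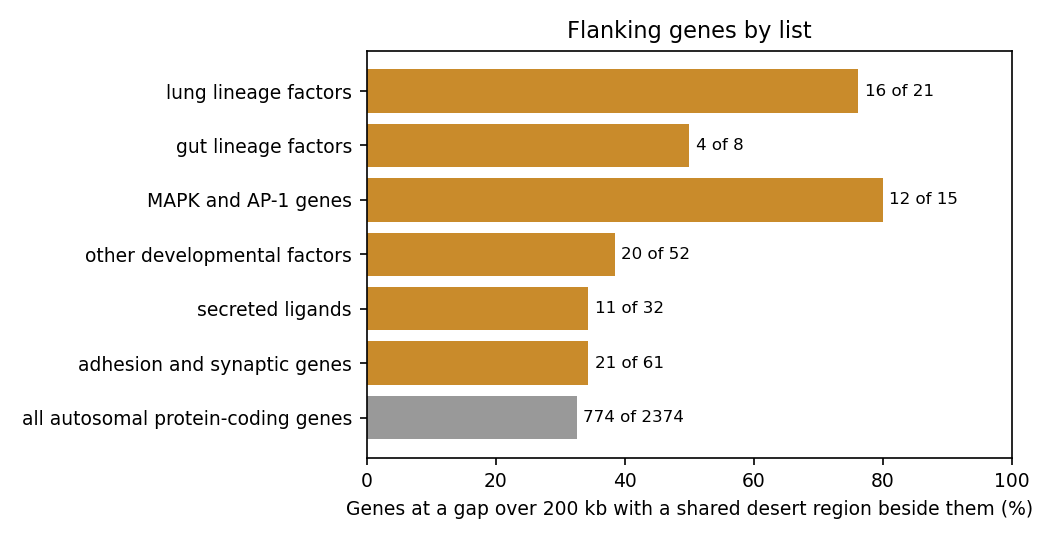
Share (%) of the genes that border an autosomal gap over 200 kb with at least 1 desert region beside them, for 6 gene lists and for all protein-coding genes in grey, with counts at the bar ends. Lung lineage factors (16 of 21) and MAPK and AP-1 genes (12 of 15) have the longest bars, and all genes stand at 774 of 2374.

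A lncRNA gene was overlapped by 367 of the 1210 desert regions (30.3%, 27.8 to 33), and by 28.4% (27 to 29.9) of the intergenic regions at 10 to 100 kb. A non-coding start, in contrast, lay inside 44 of 1156 desert regions (3.81%, 2.85 to 5.07) and inside 242 of 3751 of the nearer ones (6.45%, 5.71 to 7.28), with chromosome 18 left out of both because its starts were not used. The intervals cover counting error only, and regions in 1 gap are not independent. Regions with a start were wider in every library. Their medians were 655 and 521.5 bp in the Dicer1S2D tumours, against 615.5 and 707.5 bp in the KrasLA1 tumours. The medians of the 1112 without one were 522.5 and 444 bp in the Dicer1S2D tumours, against 484.5 and 564 bp in the KrasLA1 tumours.

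The 46 promoter windows that overlapped the 44 regions had a median GC content of 50.8%, against 48.3% for 11588 non-coding windows and 52.7% for all 32851. Their median ratio of observed to expected CpG was 0.31, against 0.24 and 0.38 for the same sets. The string TATAAA was in 26.1% of the 46, 15.5% of non-coding windows and 13.6% of all. GGGCGG was in 28.3%, 16.3% and 35.7%, TGANTCA in 13%, 9.31% and 7.81%, CCGGAAG in 13%, 3.89% and 8.86%, and TGTTTAC in 2.17%, 4.83% and 3.65% of the same sets. The strings were counted at any place in a window. With 46 windows 1 window is over 2 percent, and a match of letters does not show that a factor binds.

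Of the printed windows, that of Morrbid, a lncRNA gene known in mouse to restrain the pro-apoptotic gene Bcl2l11, held both an AP-1 and an ETS string. Its region lay 266 kb from Bcl2l11. It was 883 and 1077 bp wide in the Dicer1S2D tumours, against 1299 and 1654 bp in the KrasLA1 tumours, and the groups did not overlap. In bp, the same held for 19.4% of desert regions and 27.2% of all shared regions, so it is not particular to this one. The window of 2210417A02Rik held ETS strings on both strands and the string TATAAA, which does not lie directly before the start. Its region was 1388 and 930 bp wide in the Dicer1S2D tumours, against 983 and 1344 bp in the KrasLA1 tumours. Gm13003, with a GC box string, lay between Zbtb40 and Wnt4, 112 kb from Wnt4. Its region was 1172 and 952 bp wide in the Dicer1S2D tumours, against 1228 and 955 bp in the KrasLA1 tumours.

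Among 1136 autosomal miRNA genes 109 (9.6%) lay in a gap with a desert region, 19 of them within 50 kb of one and 5 within 5 kb. Many of the 109 lay together in a single gap, from Rtl1 to Dio3 on chromosome 12, at 121 to 460 kb from the nearest desert region. The count of 109 is thus not one of independent places. The region beside Mir29a, at chr6:31061610-31062428, was 636 and 566 bp wide in the Dicer1S2D tumours, against 675 and 799 bp in the KrasLA1 tumours. The region 3.3 kb from Mir205, an epithelial miRNA gene, was 812 and 786 bp wide in the Dicer1S2D tumours, against 780 and 766 bp in the KrasLA1 tumours and was nearly the same in each. The fifth miRNA gene within 5 kb was Mir6363, beside the start of the lncRNA gene Dubr.

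The gap of Usp25 and Cxadr on chromosome 16 holds the cluster of Mir99a, Mirlet7c-1 and Mir125b-2 and 6 desert regions. One covered 275 of the 300 bases of the Mir99ahg window and was 1137 and 1175 bp wide in the Dicer1S2D tumours, against 953 and 1210 bp in the KrasLA1 tumours. Another, at chr16:77643964-77644597, lay 1.68 kb from Mir125b-2 and 44.2 kb from Mirlet7c-1, a member of the let-7 family of tumour-suppressing miRNAs. It was 158 and 221 bp wide in the Dicer1S2D tumours, against 622 and 627 bp in the KrasLA1 tumours. The 158 bp is close to the narrowest value of any desert region in that library, 155 bp. Where only peaks of 200 bp or more were kept, this region was not called in all libraries and was no desert region. Both Dicer1S2D tumours lay below both KrasLA1 tumours, and the difference was -1.58 ± 0.35 on the log2 scale (SE), with an adjusted p of 0.999 in limma. It is among the 10 regions named below because of this difference.

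The comparison of genotypes asked whether peak width in the deserts differed with the Dicer1S2D allele. The median width averaged 490 ± 55.9 bp in the Dicer1S2D tumours and 528 ± 55.9 bp in the KrasLA1 tumours (SD, n = 2 each). The difference of -38 bp was smaller than the spread within either group. It was 41 bp within replicate 1, the females, and -117 bp within replicate 2, the males. Relative to the median of all shared regions in the same library, the desert regions stood at -0.26 ± 0.08 in the Dicer1S2D tumours and -0.32 ± 0.02 in the KrasLA1 tumours (log2, SD, n = 2 each). The difference of 0.06 had an exact two-sided permutation p of 0.667, where 2 against 2 cannot go below 0.333. In bulk tissue, fewer cells with an open site and a less open site in each cell cannot be told apart.

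Region by region, limma found 0 of the 1210 desert regions at an adjusted p under 0.05, against a background of 0% over all 26402 shared regions, and the smallest adjusted p was 0.999. At an unadjusted p under 0.05, 10 desert regions were wider in the Dicer1S2D tumours (0.826%, background 0.633%) and 24 narrower (1.98%, background 1.95%), shares near those of all regions. After centring each library on its median, both Dicer1S2D tumours were wider than both KrasLA1 tumours in 249 desert regions (20.6%, background 16.9%) and narrower in 107 (8.84%, background 10.8%). Without centring, the split turned round, to 63 wider (5.21%, background 3.66%) and 235 narrower (19.4%, background 27.2%). Centring moved the median difference over all shared regions to 0.04, against -0.12 without it, and that of the desert regions to 0.08, against -0.08 without it (log2). On both scales the desert median lay above that of all shared regions, a gap whose test over libraries is the one given for the medians.

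**Figure D4:**
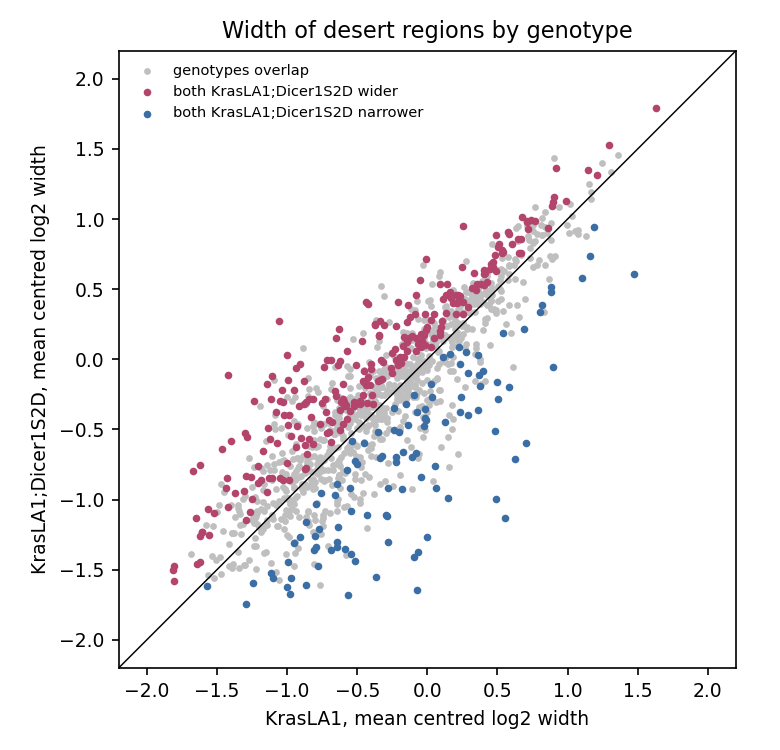
Mean centred log2 width of each of the 1210 desert regions in the Dicer1S2D tumours (vertical axis) against the KrasLA1 tumours (horizontal axis), with the line of equality. Red points are the 249 regions in which both Dicer1S2D tumours were wider, blue points the 107 in which both were narrower, and grey points the rest; without centring the counts were 63 and 235.

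The regions with the largest differences are given as a description, since they were picked for them, and none passed the test. The narrowest value of any desert region was 155 and 171 bp in the Dicer1S2D tumours, against 167 and 184 bp in the KrasLA1 tumours. Several of the narrow values in both directions lie near this lower end. The largest toward a wider peak in the Dicer1S2D tumours lay at chr1:71938164-71938977 between Fn1, the gene of fibronectin, and Mreg. It was 703 and 715 bp wide in the Dicer1S2D tumours, against 222 and 447 bp in the KrasLA1 tumours, a log2 difference of 1.33 ± 0.35 (SE). The next, between Arglu1 and Fam155a, was 642 and 455 bp wide in the Dicer1S2D tumours, against 231 and 259 bp in the KrasLA1 tumours. The other 8 lay between Man1a and Tbc1d32, Nox3 and Arid1b, Slc39a10 and Tmeff2, Wac and Fzd8, Max and Fut8, Tnp1 and Tns1, Tle4 and Psat1, and Zeb1 and Arhgap12, with log2 differences of 0.87 to 1.03.

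Of the 10 largest toward a narrower peak in the Dicer1S2D tumours, 2 lay in Lncpint between Klf14 and Mkln1. The first, at chr6:31190745-31192114, was 242 and 295 bp wide in the Dicer1S2D tumours, against 677 and 1370 bp in the KrasLA1 tumours (log2 difference -1.69 ± 0.36, SE). The second, at chr6:31099676-31100965, was 383 and 226 bp wide in the Dicer1S2D tumours, against 660 and 1290 bp in the KrasLA1 tumours (-1.48 ± 0.37). In both, the male KrasLA1 tumour was the widest by far. The region between Gm15501 and Tenm4 was more even within groups, at 345 and 370 bp in the Dicer1S2D tumours, against 946 and 1084 bp in the KrasLA1 tumours (-1.34 ± 0.24), and had the smallest unadjusted limma p of any desert region, 0.000977.

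A region in Pvt1, 214 kb from Myc, was 207 and 235 bp wide in the Dicer1S2D tumours, against 708 and 535 bp in the KrasLA1 tumours. A region 177 kb from Fgfr2, in the gap from Wdr11, was 276 and 214 bp wide in the Dicer1S2D tumours, against 590 and 725 bp in the KrasLA1 tumours. The rest of the 10 were the region near Mir125b-2 described above and regions between Gm5148 and Ankrd50, Car2 and Gm9733, Xkr9 and Eya1, and Tmem167 and Atp6ap1l, the last 4 with log2 differences of -1.31 to -1.14.

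The gaps with the most regions did not all lean the same way. Between Serp2 and Lacc1, after centring, 9 of 16 regions were wider in both Dicer1S2D tumours and 0 narrower, but without centring 1 was wider and 0 narrower. Between Klf14 and Mkln1, 1 of 16 was wider and 7 were narrower, and without centring 0 and 7. Between Wdr11 and Fgfr2, 0 of 12 were wider and 4 narrower, and without centring 0 and 5. Between Myc and Gsdmc, 3 were wider and 3 narrower, and without centring 0 and 5. Over all 10 gaps it was 26 wider and 19 narrower of 135 regions (19.3% and 14.1%, against the background of 16.9% and 10.8%), and without centring 6 and 39 (4.44% and 28.9%, against the background of 3.66% and 27.2%). Regions of 1 gap share their place on the chromosome, and whether a gap differs from others was not tested.

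The share of a library's own peaks that lay in deserts, shared or not, did not follow genotype. It was 6.51% and 5.27% of autosomal peaks in the Dicer1S2D tumours, against 6.5% and 5.3% in the KrasLA1 tumours. The group means were 5.89 ± 0.88% and 5.9 ± 0.853% (SD, n = 2 each), a difference of -0.0134 percentage points (exact two-sided permutation p = 1). Within replicate 1 the difference was 0.00601 and within replicate 2 it was -0.0328 percentage points. The female tumours stood at 6.5% and the male tumours at 5.3% in both genotypes, and replicate number and sex cannot be told apart here.

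**Figure D5:**
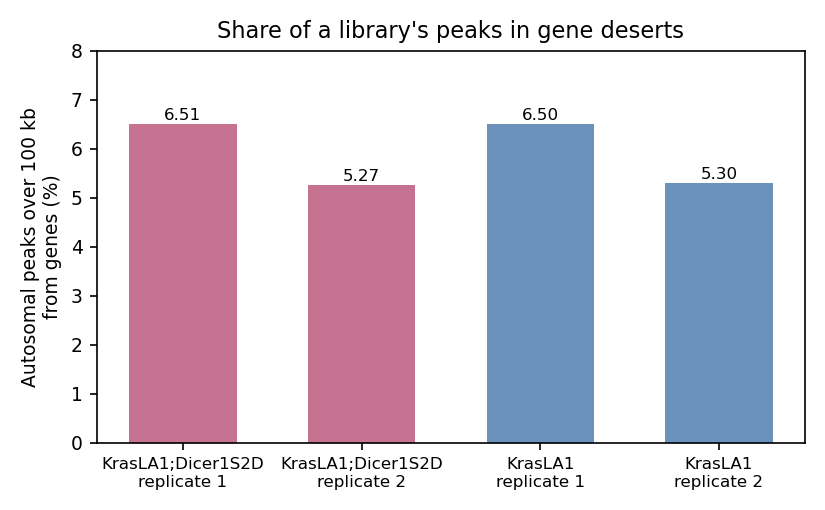
Share (%) of autosomal peaks over 100 kb from every protein-coding gene in each library, with the Dicer1S2D libraries left of the KrasLA1 libraries. The bars pair by replicate number, near 6.5% for replicate 1 (female) and 5.3% for replicate 2 (male), and not by genotype.

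Of the 4150 regions over 100 kb from genes in any library, 1454 (35%) were called in 1 library, 905 (21.8%) in 2, 581 (14%) in 3 and 1210 (29.2%, 27.8 to 30.6) in all 4. At 10 to 100 kb from genes 34.9% of regions were called in all 4, and over all autosomal regions 43.5% were. Of the 905 called in 2 libraries, 496 were in the replicate 1 tumours of both genotypes and 98 in the replicate 2 tumours of both. There were 196 in Dicer1S2D replicate 1 and KrasLA1 replicate 2, and 38 in Dicer1S2D replicate 2 and KrasLA1 replicate 1. In both Dicer1S2D tumours there were 30, and in both KrasLA1 tumours 47. The male Dicer1S2D library, which had the fewest peaks, was the one missing from 241 of the 581 regions called in 3 libraries.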

How the data were processed

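ATAC-seq peaks of 4 lung tumour samples were analysed. The authors deposited a table of genomic intervals in mm10 with 5 tracks, 4 of peaks called per library and 1 of merged regions, per the file headers; it holds start and end positions with no other number (no count, signal or p-value). Per the submitters' processing notes, deepTools 3.5.1, MACS3 3.0.0 and BWA 0.7.12 were used. Their roles, their settings, the threshold for a peak and the read depth are not stated there. An absent peak is therefore one below an unknown threshold. Columns of other samples numbered 0. A group was taken from the sample titles, with 2 mice each.

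Merging all peaks that overlapped by 1 bp gave the authors' 61972 regions. Distances were taken to the bodies of 21887 protein-coding genes of RefSeq (GRCm38.p6, the patched form of mm10). That table has no strand or exons, so an end of a gene may be its start or its finish. Coordinates count from 1. Non-coding starts, promoter windows and miRNAs came from RefSeq tables of the same build, and sequence of chromosome 18 was not used.

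Width was summed per region and library. It was compared with exact permutation and sign-flip tests over libraries, and region by region with limma 3.58.1 (R 4.3.3, moderated with a trend) on log2 width centred on the library median, over all 26402 shared regions with Benjamini-Hochberg adjustment. An exact p-value is the share of relabellings or sign flips that give a difference at least as large. A limma p-value sets a difference against the spread between these mice, moderated over all shared regions. Shares have 95% Wilson intervals for counting error only. Scripts ran in Python 3.11.15 with scipy 1.17.1, numpy 2.4.6 and, for plots, matplotlib 3.10.9. The steps were tested on simulated data.

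The desert regions, the 6 lists of 260 symbols, all matched, and the naming rule were chosen with earlier results of these data known. The rule for named genes took the flanking genes of the 15 widest regions, the 10 farthest from genes, the 10 gaps with the most regions, up to 8 per list, the 10 with the largest difference in each direction among those whose groups do not overlap, and the 5 on each side of 100 kb. For the lists the text gives counts for the list genes and widths for some of these regions. Values of Morrbid, miRNA neighbours and other regions outside that rule were chosen after they were seen. Alternatives covered overlap, merging, peak and width limits, distance, gene set, centring, leaving out each library and a replicate block.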

Additional observations from a re-analysis of the deposited data

Results flagged for a closer look

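The difference in median desert width between Dicer1S2D and KrasLA1 tumours had opposite signs by replicate number, 41 bp in replicate 1 (female) and -117 bp in replicate 2 (male). The difference in the share of peaks in deserts also had opposite signs, 0.006 percentage points in replicate 1 and -0.0328 in replicate 2. With 1 mouse per genotype and sex, neither difference between replicate numbers was tested.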

How the results depend on the processing

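The number of desert regions was 1210, and 783 with the widest 75% of peaks, 2212 with a limit of 50 kb, 485 with 200 kb and 122 where non-coding genes counted as genes; leaving out each library in turn gave 1259 to 1451. The genotype difference in desert width relative to all shared regions, 0.06 (log2), was -0.11 without centring and ran from -0.0154 (without Dicer1S2D replicate 1) to 0.106 (without Dicer1S2D replicate 2). The difference from intergenic regions at 10 to 100 kb, -0.04, was 0.0021 with the widest 75% of peaks, -0.0089 at 50 kb, -0.0954 where non-coding genes counted and -0.06 to -0.05 with a library left out. The genotype difference in the desert share of peaks, -0.0134 percentage points, was 0.0133 with the widest 75% of peaks, 0.0470 with equal numbers of widest peaks, 0.0863 at 50 kb, and ran from -0.636 to 0.609 with a library left out (0.609 without Dicer1S2D replicate 2, 0.590 without KrasLA1 replicate 1). The cause was not tested for any of these. Width calls numbered 0 in all 17 alternatives. Same-numbered tumours had deviations that correlated at 0.12 over regions. With 2 mice a group this is a single value, the same for both numbers by construction, so it cannot decide whether the numbers pair the mice. The main tests did not block on the number, which goes with sex in both groups. With the replicate block the width difference was 0.0561 (exact p = 0.5), the desert share difference -0.0134 (exact p = 1) and the width calls 0. The overlap of 50% changes nothing by construction, since peaks lie within their regions. Unknown depth limits width and presence alike, and 2 mice a group cannot give an exact p below 0.333.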
